A study of Mus musculus with 20 samples.

Results

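The glycolytic enzymes of skeletal muscle convert glucose 6-phosphate to lactate, and 10 genes that encode them in muscle were followed across the groups of this study. The genes are Gpi1, Pfkm, Aldoa, Tpi1, Gapdh, Pgk1, Pgam2, Eno3, Pkm and Ldha. They were chosen by name from the 21844 genes of the deposited count table. The symbol Aldoa stands on a further row, a separate gene model with 0 to 16 counts per library that was not tested. Muscle glycolysis splits glucose into pyruvate and yields ATP without oxygen, and fast fibres rely on it more than slow fibres do. BMAL1 is a transcription factor of the circadian clock that pairs with CLOCK and binds E-boxes, short DNA motifs whose canonical form reads CACGTG. Loss of BMAL1 in muscle is known for changes in genes of glucose handling.

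RNA was sequenced from 20 libraries of mouse hindlimb muscle in 4 groups of 5. All mice carried the genotype Cre+:iMSBmal1 fl/fl, a Bmal1 gene flanked by loxP sites with a muscle-specific Cre that has to be induced, so the control mice carried the same alleles. The groups were Vehicle + No Exercise, iMSBmal1KO + No Exercise, Vehicle + Exercise Training and iMSBMal1KO + Exercise Training, called here vehicle sedentary, knockout sedentary, vehicle trained and knockout trained. Trained mice ran on a treadmill each day over 6 weeks, and muscle was taken 48 hours post per the sample labels or 47 hours after the last bout per the series design. The tissue is given both as gastrocnemius and as tibialis anterior. The agent that induced the Cre, the age of the mice and their sex are not given in the labels, and other cell types of the muscle keep Bmal1. The control groups are labelled Vehicle, so effects of the inducing agent and of Bmal1 loss cannot be told apart in the genotype comparisons.

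The libraries held between 10610333 and 19153527 estimated counts, with 10610333 to 13079961 in the knockout trained group. Knockout trained libraries 1 and 4 differed by more than sampling noise, but the excess grew little or not at all with the count. The same held for libraries 3 and 5, unlike all other pairs. Each pair was therefore summed and the group has n = 3. This leaves 18 samples. Vehicle trained library 2 stands apart from the other 17 samples, and the edgeR calls of each comparison are given with and without it. Counts of the targeted gene, listed as Arntl, were no lower under the knockout label (12.6 ± 3.04 CPM sedentary, SD, n = 5, and 11.4 ± 3.82 trained, n = 3) than in the vehicle sedentary libraries (6.73 ± 0.738, n = 5). In vehicle trained muscle they were at 34.0 ± 61.4 CPM (n = 5) with library 2 and 6.53 ± 0.446 (n = 4) without it, so the direction in trained muscle turns on that library. CPM is the count scaled to a common library size, here with TMM factors. Counts summed over the whole gene do not separate exons inside and outside the deleted part, so the label could not be checked this way, and knockout here means the libraries labelled so. The genotype groups did differ in other clock genes. Of 11 core clock genes, Arntl included, 10 had sedentary genotype groups without overlap, against 8.71% of all genes, and edgeR called 2 higher and 3 lower with all samples and 3 higher and 7 lower without library 2. Clock, the partner of BMAL1, was at 33.1 ± 1.88 CPM in vehicle and 76.0 ± 6.36 in knockout sedentary muscle (SD, n = 5 each; edgeR adjusted p = 0.000166). Markers of muscle fibres were present in all libraries. Nothing in the labels says whether libraries of a group came from separate animals, so p-values measure only the spread between these samples.

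The canonical E-box was looked for in the 250 bases before each annotated start. BMAL1 binds E-boxes, and the genotype comparisons are of libraries labelled vehicle and knockout. The motif CACGTG reads the same on both strands. RefSeq (build GRCm38.p6) lists 17 starts for the 10 genes, and 2 of these starts, of 2 genes, hold it. Over all 32817 distinct promoters in the same table the share was 6.02%, and 6.86% of 27025 genes held it at some start. Both sequences are shown with the motif in capitals and everything else in lower case. The Ldha promoter lies at chr7:46845554-46845803 on the plus strand, with motifs beginning 145 and 48 bases before the start. The Pfkm promoter lies at chr15:98092339-98092588 on the plus strand, with a motif beginning 136 bases before the start.
Ldha start 1: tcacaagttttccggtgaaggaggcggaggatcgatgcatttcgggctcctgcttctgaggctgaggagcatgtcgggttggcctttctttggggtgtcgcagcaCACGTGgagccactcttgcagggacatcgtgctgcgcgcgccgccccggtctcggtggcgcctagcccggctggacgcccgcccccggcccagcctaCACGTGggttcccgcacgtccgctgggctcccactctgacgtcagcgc
Pfkm start 1: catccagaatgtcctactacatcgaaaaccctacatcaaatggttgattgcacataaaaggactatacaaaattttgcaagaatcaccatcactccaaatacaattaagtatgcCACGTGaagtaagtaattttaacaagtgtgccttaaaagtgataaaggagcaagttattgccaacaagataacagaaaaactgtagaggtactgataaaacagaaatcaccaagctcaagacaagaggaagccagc
The other 3 starts listed for Pfkm and the other start of Ldha do not hold these letters in this window. A match of letters is a description of the sequence and no evidence of binding.

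**Figure D1:**
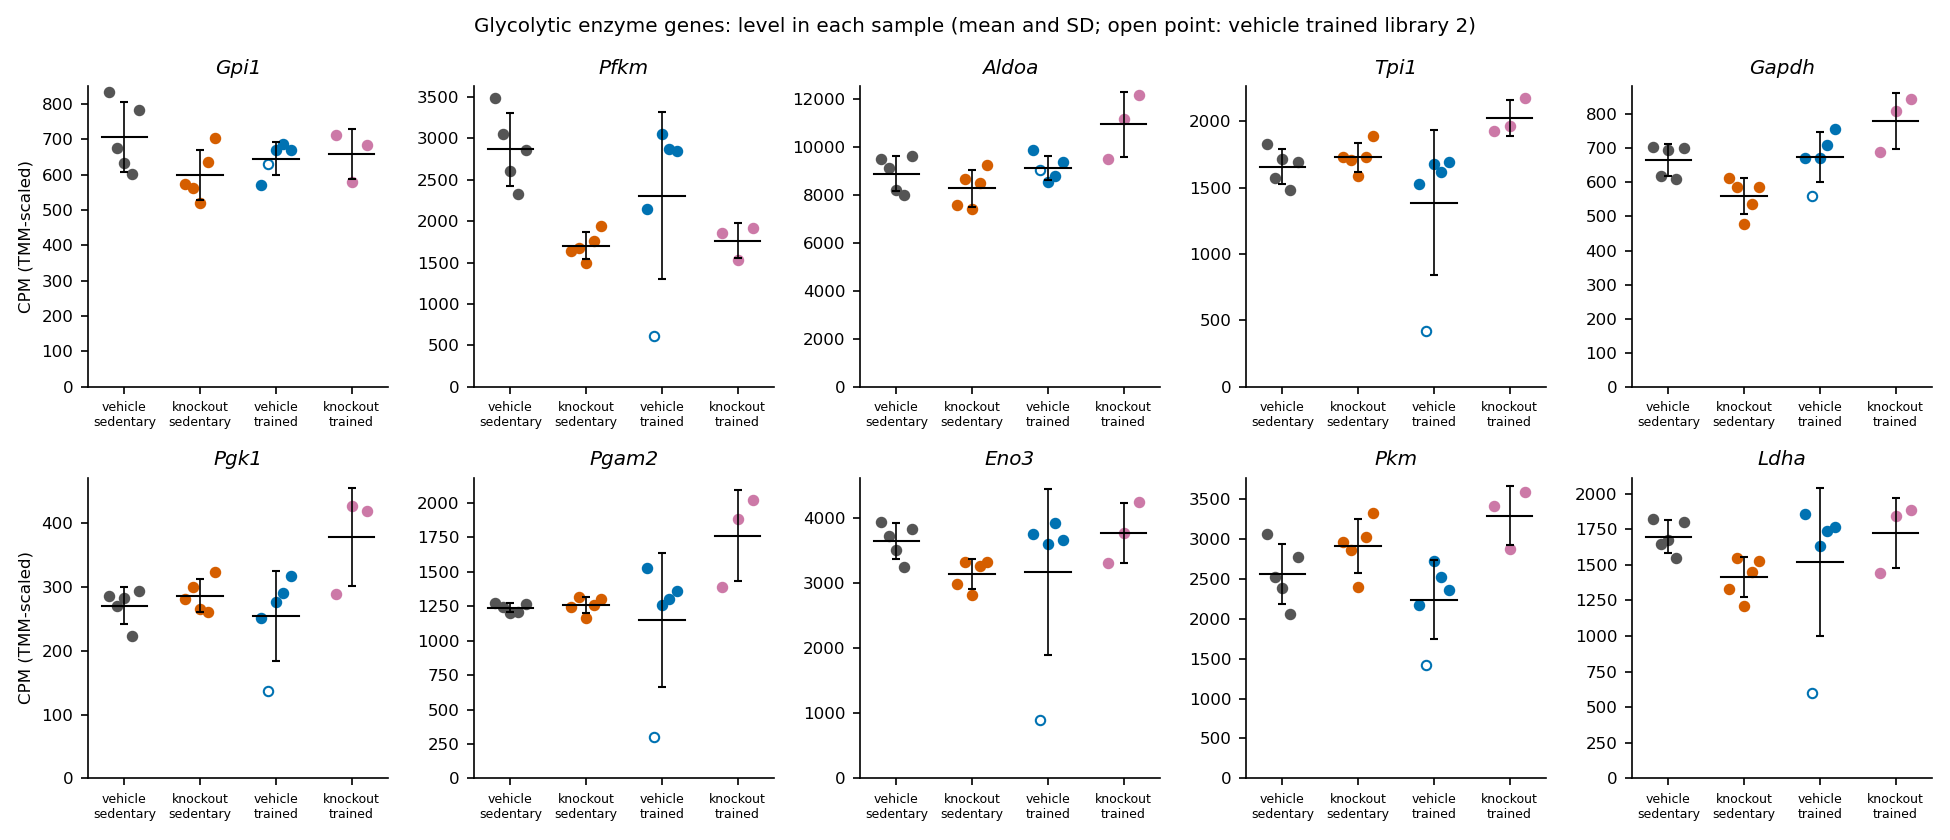
Level of each glycolytic enzyme gene (CPM, TMM-scaled, y axis from 0) in every sample of the 4 groups (x axis), with the group mean and SD as lines. Open points are vehicle trained library 2, which lies below all other samples for 7 of the 10 genes. Pfkm values of the knockout sedentary group lie below all vehicle sedentary values.

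All 10 enzymes were abundant in muscle. By mean CPM in vehicle sedentary muscle they ranked between 17 (Aldoa) and 400 (Pgk1) among the 14359 genes tested. Together they took 2.25 to 2.64% of the counts of those libraries. Divided by exon length in kilobases, the mean level in vehicle sedentary muscle was highest for Aldoa, the aldolase that splits fructose bisphosphate, at 3058 ± 255 CPM per kb (SD, n = 5). Eno3, the muscle enolase, followed at 2100.3 ± 158 CPM per kb, and Pgam2, the muscle phosphoglycerate mutase, at 1475 ± 39.3. Pfkm, the muscle phosphofructokinase that commits sugar to glycolysis, stood at 859 ± 132 CPM per kb and Tpi1, triose phosphate isomerase, at 603 ± 48.8. Ldha, the lactate dehydrogenase subunit that favours lactate, reached 513 ± 34.3 CPM per kb, and Pkm, pyruvate kinase, reached 512 ± 75.6. The vehicle sedentary ranges of Tpi1, Ldha and Pkm overlap, so their order is within the spread. Gapdh, the dehydrogenase of the middle of the pathway, had 161 ± 11.4 CPM per kb on its own row. Pgk1, phosphoglycerate kinase, had 121 ± 12.6 and Gpi1, glucose phosphate isomerase, 109 ± 15.4, and their ranges overlap as well. Exon length here is the union of all annotated exons of a gene. It is 4133 bases for Gapdh, whose longest coding transcript has 1420, and 5001 against 2432 for Pkm. For Pgam2 both lengths are 840. The order of the enzymes per kb therefore depends on the length chosen.

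The levels of Gapdh, Pgk1 and Gpi1 depend on how reads were shared with near-identical gene copies. Transcripts of 64 genes in the table match Gapdh over at least 250 bases at 95% identity or more, and their summed counts were 389 to 548% of the counts on the Gapdh row in the same library. The copy with the most counts, Gm7336, alone held 406%. Pgk1 has 4 such copies with 131 to 194% of its own counts, and Gpi1 has 1 with 25.1 to 30.4%. Copies of Pkm, Ldha and Tpi1 held at most 6.6%, 2.22% and 0.628%, and Pfkm, Aldoa, Pgam2 and Eno3 had none in the table. With the copies added, Gapdh reached 3598 ± 171 CPM in vehicle sedentary, 3143 ± 261 in knockout sedentary, 3811 ± 254 in vehicle trained and 4167 ± 426 in knockout trained muscle (SD, n = 5, 5, 5 and 3). Values of Gapdh and Pgk1 below are those of their own rows and are uncertain for this reason.

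**Figure D2:**
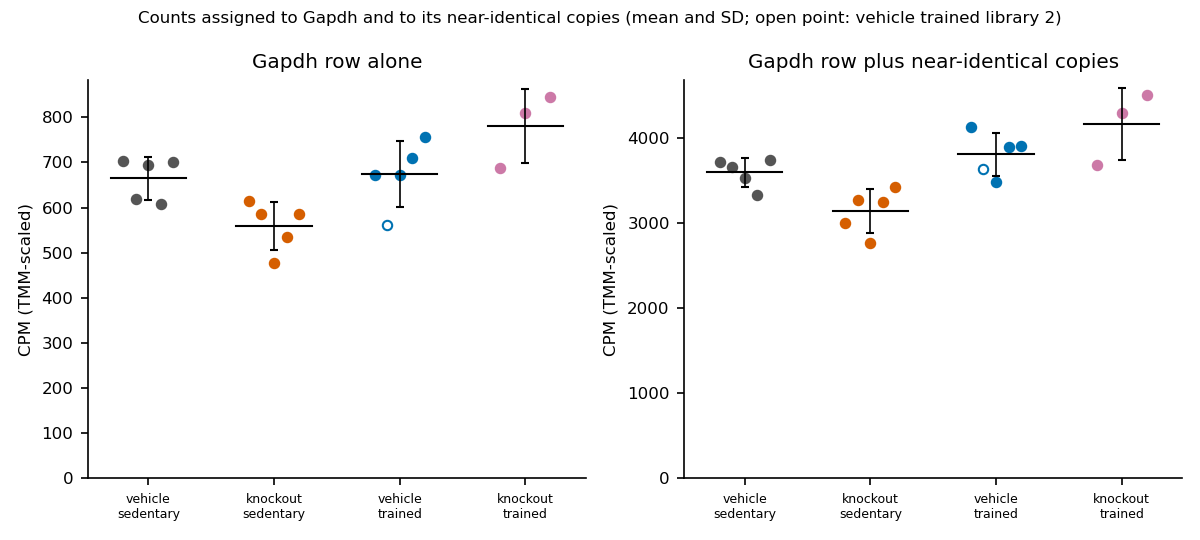
Gapdh in every sample of the 4 groups (x axis) as CPM (TMM-scaled, y axis from 0), on the left from the gene's own row and on the right with its 64 near-identical copies added; lines are the mean and SD and the open point is vehicle trained library 2. The knockout trained samples lie above the knockout sedentary samples in both panels, and the sums on the right exceed the own row in every sample.

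Among other enzymes of the same steps, Ldhb, the lactate dehydrogenase subunit of oxidative tissue, had 137 ± 23.1 CPM per kb in vehicle sedentary muscle. By this length its mean lay above those of Pgk1 and Gpi1 on their own rows, with overlapping ranges. Pgam1, Eno1, Pfkl and Aldoc, the forms of other tissues, were far less abundant, at 10.9, 8.60, 1.05 and 0.148 CPM per kb.

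Vehicle trained library 2 carried low levels of most of these enzymes. In this library 7 of the 10 genes lay below all other 17 samples, none lay above them and 3 lay in between. Pgam2 was at 298 CPM against 1260.3 to 1529 in the other 4 vehicle trained libraries, which is 21.9% of their mean. Pfkm stood at 22.3% of the mean of the other 4, Eno3 at 24.0%, Tpi1 at 25.7% and Ldha at 34.1%. Pgk1 and Pkm were at 48.0% and 58.3%. Gapdh was at 79.8%, while Gpi1 and Aldoa, at 97.2% and 98.8%, lay within the range of the other 4 libraries. Hk2, the hexokinase of insulin-responsive muscle, was by contrast at 1879 CPM there and at 321 to 522 in the other 4. Arntl, the targeted gene, was at 144 CPM against 5.96 to 6.98 in the other 4, and Clock at 58.7 against 31.9 to 34.7. The summed level of 12 fast fibre markers was 61724 CPM in this library and 81246 to 85191 in the other 4, that of 6 macrophage markers was 370 against 146 to 316, and that of 6 adipocyte markers was 182 against 242 to 1045. No marker of these lists was at 0 in all samples, and 1 adipocyte marker was at 0 in some. The part of these differences in the enzyme values was not tested.

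**Figure D3:**
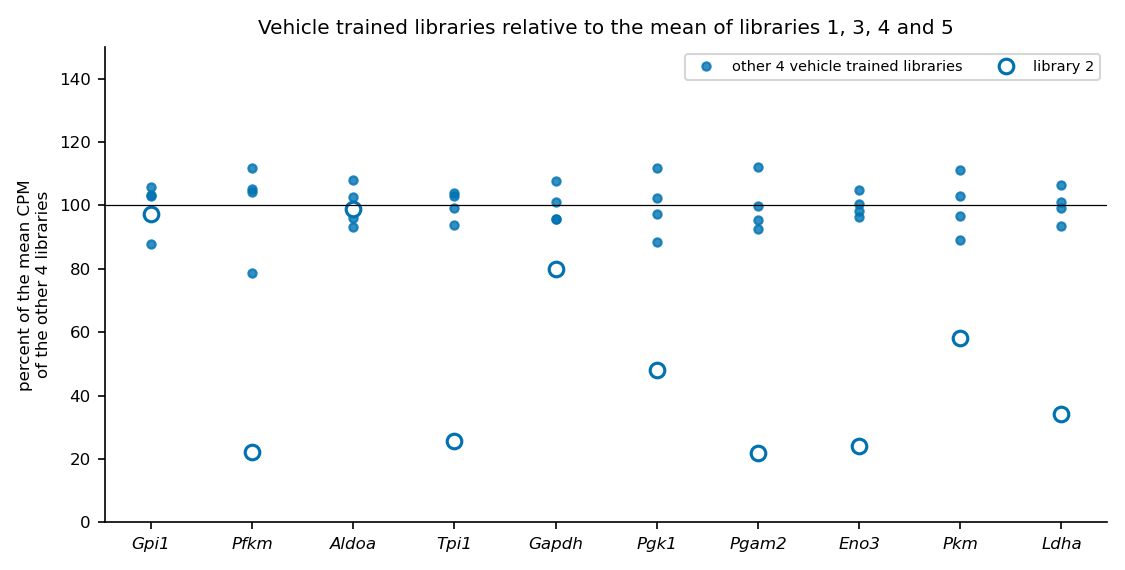
Each vehicle trained library as percent of the mean CPM of libraries 1, 3, 4 and 5 (y axis from 0) for the 10 glycolytic enzyme genes (x axis); filled points are those 4 libraries and open points library 2. Library 2 lies between 21.9 and 98.8%, lowest for Pgam2 and highest for Aldoa.

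The first comparison asks what differs between knockout and vehicle libraries in sedentary muscle. Pfkm was the enzyme that differed most. It measured 3489, 3054, 2605, 2334 and 2866 CPM in the vehicle sedentary libraries. In the knockout sedentary libraries it measured 1638, 1677, 1499, 1766 and 1946 CPM. Every knockout library lay below every vehicle library. The fitted change was a log2 of -0.75 (SE 0.28, edgeR adjusted p = 0.272), a level 40.6% lower. The threshold is 0.05. Vehicle trained library 2 is not part of this comparison but enters the shared estimate of the spread, and without it the log2 change was -0.75 (SE 0.12) with an edgeR adjusted p of 0.000444. With only the sedentary groups in the fit it was also -0.75, with an edgeR adjusted p of 0.000491.

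None of the 10 enzymes passed the test in the sedentary comparison with all samples, against 2.33% of the 14359 genes tested, and 2 of 10 (Pfkm and Gapdh) had an unadjusted p under 0.05 against 9.81%. DESeq2 also called none, against 3.81% of the 14095 genes to which it gave an adjusted p. Its shares in the trained genotype and the vehicle training comparison have the same base. Without library 2, edgeR called 1 of 10, Pfkm, as lower, against 6.98% of genes in either direction. Of the 10, Pfkm and Ldha, 2 genes, had groups without overlap, against 8.71% of all genes, and this share is the same without library 2. Ldha measured 1821, 1644, 1677, 1551 and 1805 CPM in vehicle sedentary and 1332, 1546, 1211, 1454 and 1526 CPM in knockout sedentary libraries. All of its knockout values were the lower ones, with a log2 change of -0.27 (SE 0.21, edgeR adjusted p = 0.882) and, without library 2, of -0.26 (SE 0.10, edgeR adjusted p = 0.14). Gapdh measured 609 to 703 CPM with a median of 694 in vehicle and 478 to 614 with a median of 585 in knockout sedentary muscle. The groups overlap, and the log2 change was -0.25 (SE 0.10, edgeR adjusted p = 0.39). With its near-identical copies added it was -0.19 (SE 0.10, edgeR unadjusted p = 0.0663). The unadjusted p under 0.05 of Gapdh thus rests on its own row. Pkm, the last step before lactate dehydrogenase, had a log2 change of 0.19 (SE 0.16, edgeR adjusted p = 0.896). The other 6 lay between -0.24 (Gpi1) and 0.08 (Pgk1). The median log2 change of the 10 was -0.16, beside 0.01 over all genes tested. Several marker lists lay mostly to one side of 0 in the same comparison, with no marker of them called with all samples. The median log2 change was -0.21 over 10 muscle fibre markers (9 of 10 negative) and -0.20 over 6 Schwann cell markers (6 of 6 negative). It was 0.37 over 6 fibroblast markers and 0.25 over 6 macrophage markers (6 of 6 positive each). The summed fibre markers ran from 65938 to 78534 CPM in vehicle and 56762 to 74918 CPM in knockout sedentary libraries, and the summed fibroblast markers from 1022 to 2027 and from 1226 to 2176 CPM. The Schwann cell sums were 62.7 to 162 and 64.5 to 112 CPM, and the macrophage sums 46.5 to 188 and 72.5 to 202 CPM. The part of these differences in marker levels was not tested.

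In trained muscle, Pkm and Tpi1 were the enzymes whose genotype groups stood apart with all samples, both higher in the knockout. Pkm measured 2177, 1425, 2721, 2519 and 2365 CPM in vehicle trained libraries and 3410.4, 2881 and 3587 CPM in the knockout trained samples. Every knockout value lay above every vehicle value. The log2 change was 0.55 (SE 0.18, edgeR adjusted p = 0.109) and, without vehicle trained library 2, 0.43 (SE 0.14, edgeR adjusted p = 0.0591). DESeq2 called Pkm as higher (log2 change 0.55, adjusted p = 0.0364). Tpi1 measured 1530.1, 419, 1677, 1619 and 1693 CPM in vehicle trained and 1926, 1966 and 2178 CPM in knockout trained muscle, again without overlap. Its log2 change was 0.54 (SE 0.28, edgeR adjusted p = 0.328), and 0.32 (SE 0.10, edgeR adjusted p = 0.0527) without library 2.

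Pfkm stayed on the low side in the trained knockout samples. It measured 2150.4, 611, 3052, 2877 and 2852 CPM in vehicle trained and 1856, 1527 and 1915 CPM in knockout trained muscle. Library 2 is the only vehicle trained value below the knockout values. The log2 change was -0.39 (SE 0.33, edgeR adjusted p = 0.573) with it and -0.62 (SE 0.15, edgeR adjusted p = 0.0126) without it. Pgam2 measured 1529, 298, 1260.3, 1302 and 1361 CPM in vehicle trained and 1389, 1882 and 2021 CPM in knockout trained muscle, and the groups overlap. Its log2 change was 0.62 (SE 0.31, edgeR adjusted p = 0.313), and 0.38 (SE 0.12, edgeR adjusted p = 0.0497) without library 2.

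With all samples, edgeR called 0 of the 10 enzymes in the trained comparison, against 3.29% of genes. An unadjusted p under 0.05 was found for 2 of 10 (Pgk1 and Pkm), against 17.2%, and DESeq2 called 1 of 10, against 6.43%. Groups without overlap were found for Tpi1 and Pkm, 2 of 10, against 8.86% of genes. Without library 2, edgeR called 2 of 10, Pfkm lower and Pgam2 higher, against 8.66%, and 3 of 10 (Pfkm, Tpi1 and Pkm) had groups without overlap, against 15.8%. The median log2 change of the 10 was 0.26 with all samples and 0.21 without library 2, beside -0.03 and 0.00 over all genes. Fibre markers had medians above 0 as well. The median log2 change was 0.30 over 12 fast fibre genes, of which 1 was called higher, and 0.82 over 9 slow fibre genes, of which none was called. Without library 2 the medians were 0.30 (2 of 12 called higher) and 0.74 (1 of 9 called higher), against 8.66% of genes in either direction. Myh4, the main fast myosin, was at 19771 ± 5759 CPM in vehicle trained (SD, n = 5) and 19133 ± 2959 in knockout trained muscle (n = 3), Myh1 at 1859 ± 646 and 2021 ± 794, Myh2 at 911 ± 493 and 1338 ± 347, and Myh7, the slow myosin, at 149 ± 67.1 and 264 ± 20.3. Without library 2 the vehicle trained levels were 22088 ± 2903 CPM for Myh4, 1815 ± 737 for Myh1, 1058 ± 423 for Myh2 and 150 ± 77.4 for Myh7 (SD, n = 4). Macrophage markers had a median of -0.90 (6 of 6 negative, 3 with an unadjusted p under 0.05) and fibroblast markers of -0.43 (5 of 6 negative), while 5 blood markers had a median of 0.47 (5 of 5 positive), none of them called. Without library 2 the medians were -0.75 for macrophage markers (6 of 6 negative, 1 with an unadjusted p under 0.05) and -0.56 for fibroblast markers (6 of 6 negative). Blood markers then had a median of 0.35 (5 of 5 positive), and again none of these markers was called. Their summed levels in vehicle and knockout trained samples were 146 to 370 and 46.3 to 289 CPM for macrophage, 1772 to 2902 and 913 to 2170.1 CPM for fibroblast, and 559 to 2050.4 and 422 to 3133 CPM for blood markers. Their part in the enzyme values was not tested, and in whole muscle fewer cells of a type and less RNA per cell cannot be told apart.

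**Figure D4:**
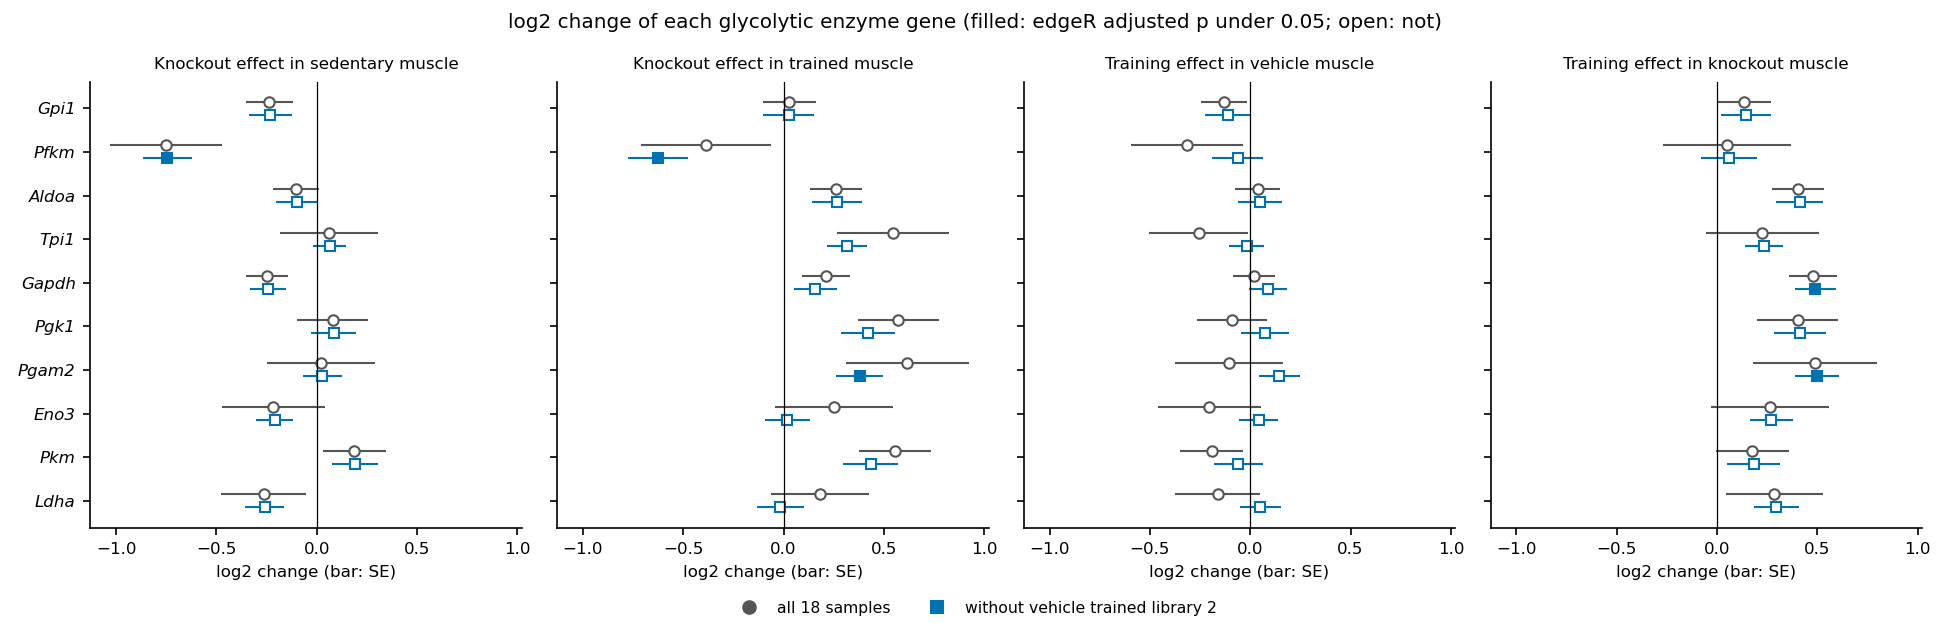
log2 change (x axis, bars are the SE) of each glycolytic enzyme gene (y axis) in the 4 pairwise comparisons, from all 18 samples (circles) and without vehicle trained library 2 (squares); filled symbols passed edgeR's adjusted p of 0.05. No circle is filled, and filled squares are Pfkm in both genotype comparisons, Pgam2 in the trained genotype comparison, and Gapdh and Pgam2 in the training comparison of knockout muscle.

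The next comparisons ask what training changes. In vehicle muscle none of the 10 enzymes passed edgeR's test, where 0% of genes did. None had an unadjusted p under 0.05, against 15.2% of genes, none was called by DESeq2, against 0.106%, and none had groups without overlap, against 1.87%. Log2 changes ran from -0.31 (Pfkm) to 0.04 (Aldoa), with a median of -0.14 beside 0.03 over all genes. Without library 2 they ran from -0.11 (Gpi1) to 0.15 (Pgam2), with a median of 0.05. Again none was called by edgeR, against 0%, and none had groups without overlap, against 3.38%. The low side of the first range thus came with that library. In the same comparison with all samples the median log2 change was 1.08 over the macrophage markers (6 of 6 positive, all 6 with an unadjusted p under 0.05). It was 0.88 over the adipocyte and 0.56 over the fibroblast markers. Slow fibre markers had a median of -0.43 (9 of 9 negative) and Schwann cell markers of -0.56 (5 of 6 negative). Without library 2 the macrophage median was 0.88, with 3 of 6 markers at an unadjusted p under 0.05. The adipocyte, fibroblast, slow fibre and Schwann cell medians were then 1.17, 0.67, -0.41 and -0.75. None of these markers was called with or without library 2, and their part was not tested. Outside library 2, vehicle trained and vehicle sedentary values of Aldoa covered 8544 to 9883 and 8010 to 9633 CPM, and those of Eno3 covered 3604 to 3926 and 3250.1 to 3943 CPM.

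In knockout muscle the trained samples had the higher mean for each of the 10 enzymes. Gapdh measured 614, 585, 478, 536 and 586 CPM in knockout sedentary and 688, 809 and 846 CPM in knockout trained samples. All trained values were above all sedentary ones, with a log2 change of 0.48 (SE 0.12, edgeR adjusted p = 0.141) from all samples and 0.49 (SE 0.10, edgeR adjusted p = 0.0347) without vehicle trained library 2. With its near-identical copies added, the change without that library was 0.42 (SE 0.10, edgeR adjusted p = 0.0596). Pgam2 measured 1246, 1314, 1167, 1258 and 1302 CPM in sedentary and 1389, 1882 and 2021 CPM in trained knockout samples, again without overlap. Its log2 change was 0.49 (SE 0.31, edgeR adjusted p = 0.688), and 0.50 (SE 0.11, edgeR adjusted p = 0.0415) without library 2.

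Aldoa measured 7575, 8690, 7406, 8519 and 9240.3 CPM in sedentary and 9497, 11181 and 12185 CPM in trained knockout samples. The groups do not overlap, and the log2 change was 0.40 (SE 0.13, edgeR adjusted p = 0.256), or 0.41 (SE 0.12, edgeR adjusted p = 0.0828) without library 2. Pgk1 measured 281, 300, 265, 261 and 324 CPM in sedentary and 289, 427 and 420 CPM in trained knockout samples. The sum of libraries 1 and 4 is the knockout trained value inside the sedentary range, and it was the lowest of the group for Aldoa, Tpi1, Gapdh, Pgk1, Pgam2, Eno3 and Ldha. Pfkm, by contrast, had a log2 change of 0.05 (SE 0.32, edgeR adjusted p = 0.996), with 1705 ± 165 CPM in sedentary (SD, n = 5) and 1766 ± 209 CPM in trained knockout muscle (n = 3).

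By edgeR with all samples, 0 of the 10 enzymes were called in this comparison, against 0% of genes. An unadjusted p under 0.05 was found for 2 of 10, Aldoa and Gapdh, against 9.71% of genes. DESeq2 called these 2 as higher, against 2.97% of only the 6656 genes to which it gave an adjusted p. With or without library 2, 4 of 10 (Aldoa, Tpi1, Gapdh and Pgam2) had groups without overlap, against 8.69% of genes. Without library 2 edgeR called 2 of 10, Gapdh and Pgam2, against 0.843% of genes. The median log2 change of the 10 was 0.27 beside -0.02 over all genes. Scaling by library totals alone moved the median of all genes by -0.14 in this comparison, and Pfkm then had a log2 change of -0.09 while the other 9 stayed above 0. Beside these values, the median log2 change was 0.32 over the 12 fast fibre genes and 0.51 over the 9 slow fibre genes, none of them called. The summed adipocyte markers ran from 301 to 356 CPM in sedentary and from 361 to 742 CPM in trained knockout samples. Blood markers had a median log2 change of 0.98 (5 of 5 positive, 3 with an unadjusted p under 0.05, none called), and their sum ran from 347 to 791 CPM in sedentary and from 422 to 3133 CPM in trained knockout samples. Their part in the enzyme values was not tested.

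Whether the response to training depends on genotype was tested as an interaction. By edgeR none of the 10 enzymes passed with all samples or without library 2, where 0% of genes passed in either. DESeq2 called none, against 0.833% of only the 3123 genes to which it gave an adjusted p. Aldoa and Gapdh had an unadjusted p under 0.05, which makes 2 of 10 against 7.49% of genes. The interaction, training effect in knockout less that in vehicle muscle, lay between 0.26 (Gpi1) and 0.60 (Pgam2) on the log2 scale with all samples. Without library 2 it lay between 0.12 (Pfkm) and 0.40 (Gapdh, SE 0.14, edgeR adjusted p = 0.295), with a median of 0.25 beside 0.00 over all genes. With near-identical copies added and without library 2, the interaction of Gapdh was 0.31 (SE 0.14, edgeR adjusted p = 0.425). With all samples the median interaction was 0.45 over the 10 enzymes (10 of 10 positive). Fibre markers were positive as well, with medians of 0.42 over the muscle fibre (10 of 10), 0.33 over the fast fibre (12 of 12) and 1.18 over the slow fibre list (9 of 9). The median was -1.16 over the macrophage markers and -0.81 over the fibroblast markers (6 of 6 negative each). Without library 2 it was 0.43 over the muscle fibre (9 of 10 positive) and 0.26 over the fast fibre markers (11 of 12 positive). The slow fibre median was then 1.09 (9 of 9 positive). The macrophage and fibroblast medians were -1.02 and -0.96 (6 of 6 negative each). None of these markers was called, and their part was not tested. The training effects in vehicle and knockout muscle are therefore not shown to differ for any of these enzymes. The genotype and training comparisons share samples, so these values are not independent of each other.

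Across samples the enzymes moved together in unequal degree. After each group's mean log2 level was subtracted, the 45 pairs of the 10 genes had a median Pearson r of 0.715 over 18 samples, from 0.0304 (Gpi1 with Pgam2) to 0.986 (Tpi1 with Eno3). Without library 2 the median over 17 samples was 0.599, from -0.134 (Pfkm with Pgam2) to 0.919 (Gpi1 with Pkm). Pfkm then had the lowest median r with the other 9, 0.356, and Ldha the highest, 0.722. Other genes were compared with the mean of the 10 without subtracting group means, so these r values include differences between groups. Without library 2 the most alike were Vdac2, a channel of the outer mitochondrial membrane (r = 0.902), Ywhae (0.890) and Vdac3 (0.857). Gm7336, the Gapdh copy with the most counts, was next (0.853). After it came Akt1s1 (0.848), Ubac1 (0.846) and Ckm, the muscle creatine kinase (0.832). With all 18 samples the most alike were Tmem230 (0.930), Gmpr (0.912) and Tmod1 (0.911), so the list depends on that library. Gm5537, a near-identical copy of Pgk1, had 0.904 there. The part of reads shared with such copies was not tested. These correlations share library depth and scaling across genes and are descriptions.

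The other genes of the pathway were taken from a list of 35, of which 29 stand in the table and 25 were tested. In the sedentary genotype comparison edgeR called 0 of 25 with all samples, against 2.33% of all genes. An unadjusted p under 0.05 was found for 5 of 25, against 9.81%, and DESeq2 called 1, Tigar, lower, against 3.81%. Without vehicle trained library 2 edgeR called 5 of 25, all lower (Hk2, Tigar, Bpgm, Pfkfb1 and Pgm2l1), against 6.98% of genes in either direction. Hk2 phosphorylates glucose on entry into muscle. It measured 590.4, 513, 423, 391 and 534 CPM in vehicle sedentary and 231, 231, 218, 243 and 299.7 CPM in knockout sedentary libraries. No knockout value reached a vehicle value, and without library 2 the log2 change was -0.998 (SE 0.136, edgeR adjusted p = 6.73e-05). With all samples its edgeR adjusted p was 0.212. Tigar, a phosphatase that lowers the activator of phosphofructokinase, fell by 0.59 on the log2 scale (SE 0.09, edgeR adjusted p = 0.000358, without library 2). Bpgm, which makes the allosteric regulator of haemoglobin from a glycolytic intermediate, fell by 0.53 (SE 0.10, edgeR adjusted p = 0.00124, without library 2). The remaining calls without library 2 were Pfkfb1, a kinase and phosphatase that sets that activator, and Pgm2l1, with log2 changes of -0.46 each.

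In trained muscle edgeR called 3 of 25 with all samples, against 3.29% of genes. Eno1, the enolase of other tissues, was higher in knockout samples by a log2 of 0.62 (SE 0.14, edgeR adjusted p = 0.0201). Ldhb measured 180, 81.3, 153, 69.5 and 93.8 CPM in vehicle trained and 272, 244 and 313 CPM in knockout trained samples. All knockout values were above all vehicle values, with a log2 change of 1.26 (SE 0.27, edgeR adjusted p = 0.015). Hk2 measured 321, 1879, 522, 469.6 and 441 CPM in vehicle trained and 253, 201 and 232 CPM in knockout trained samples. Its log2 change was -1.67 (SE 0.43, edgeR adjusted p = 0.0391) with library 2 and -0.93 (SE 0.17, edgeR adjusted p = 0.00137) without it, so the size depends on that library. Without it edgeR called 3 higher (Eno1, Ldhb and Pgp, a phosphoglycolate phosphatase) and 3 lower (Hk2, Tigar and Pgm2l1), 6 of 25 against 8.66% of genes in either direction. None of the 25 was called for training in vehicle or knockout muscle or for the interaction by edgeR, with or without that library, while 5, 1 and 4 of 25 had an unadjusted p under 0.05 with all samples, against 15.2%, 9.71% and 7.49% of genes.

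**Figure D5:**
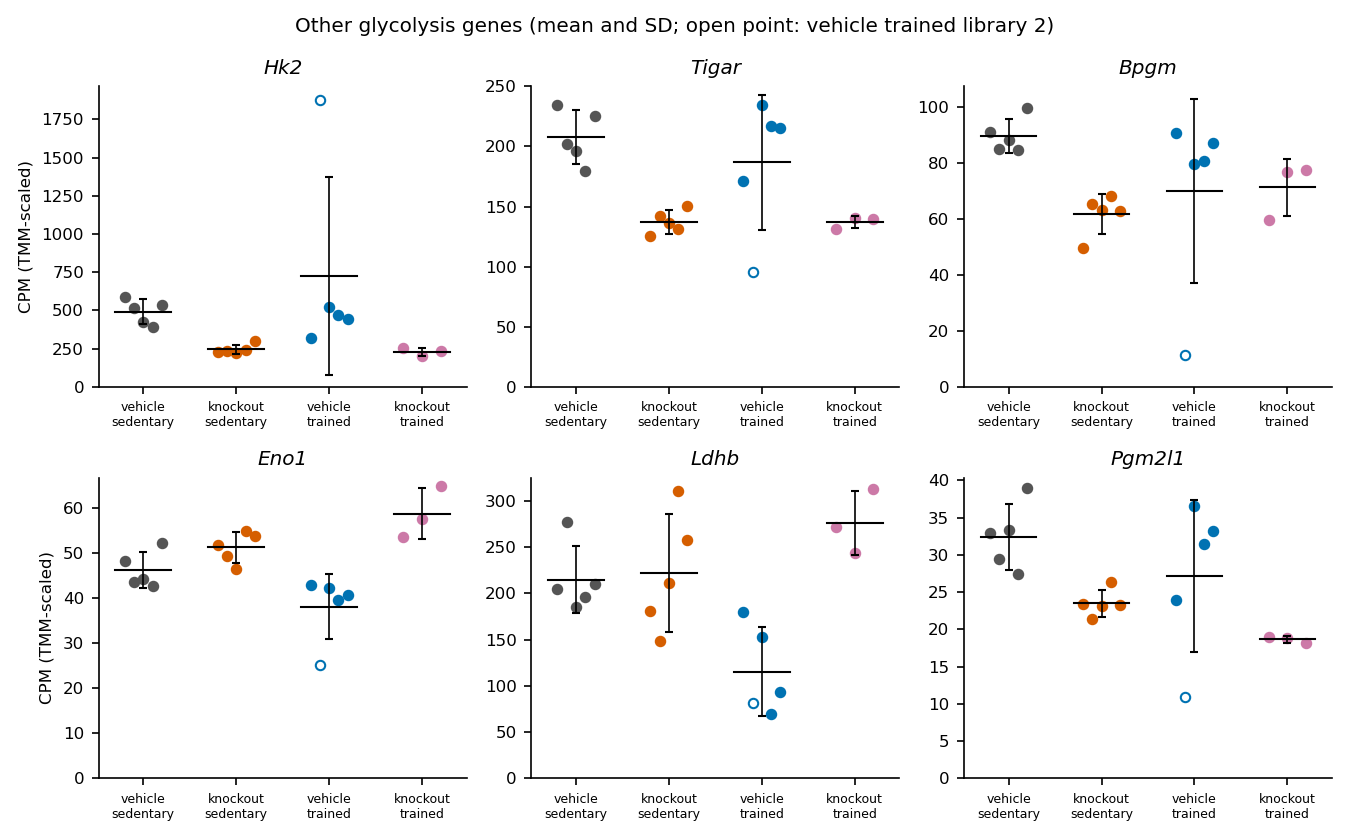
Level of 6 other glycolysis genes (CPM, TMM-scaled, y axis from 0) in every sample of the 4 groups (x axis), with the mean and SD as lines and vehicle trained library 2 as an open point. Hk2 and Tigar values of knockout sedentary samples lie below all vehicle sedentary values, and Ldhb values of knockout trained samples lie above all vehicle trained values.

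Ratios of 2 isozymes within a library do not depend on scaling between libraries. For 5 pairs in 4 comparisons, 20 exact two-sided permutation tests gave no adjusted p under 0.05. The count of Eno1 was 1.17 to 1.37% of that of Eno3 in vehicle sedentary and 1.48 to 1.73% in knockout sedentary libraries, without overlap. The exact permutation p was 0.00794, the smallest that 5 against 5 allows, and 0.0794 after adjustment. The count of Pfkl was 0.146 to 0.346% of that of Pfkm in vehicle and 0.347 to 0.409% in knockout sedentary libraries, with the same exact permutation p of 0.00794 and 0.0794 adjusted. Only 65 to 177 counts of Pfkl stood behind the vehicle values. All these tests included library 2. In trained muscle Eno1 was at 1.14, 1.17, 1.01 and 1.11% of Eno3 in vehicle libraries 1, 3, 4 and 5 and 2.81% in library 2. The knockout trained samples had 1.62, 1.53 and 1.53% (exact permutation p = 0.571 with library 2). Pfkl was at 0.492% of Pfkm in vehicle trained library 1 and at 0.413 to 0.439% in knockout trained samples. Near-identical copies of Eno1 and Pfkl were not searched for.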

How the data were processed

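Messenger RNA was measured in 20 libraries, extracted with Trizol and an RNeasy kit and prepared with an Illumina kit, per the labels' protocols. Per the submitters' processing notes, Partek, STAR 2.7.8a and DESeq2 were used and the builds mm10 and GRCm39 are named; quantification, annotation, strandedness and filters are not given in the sources used here. The deposited table carries the name CPM, but its values are estimated counts: column totals differ between libraries and 72.6% of values are whole (tolerance 1e-09). Library totals are 12929215 to 19153527 (vehicle sedentary), 11506037 to 18969645 (knockout sedentary), 13905274 to 17564810 (vehicle trained) and 10610333 to 13079961 (knockout trained); precision rests on the spread between samples.

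The estimated counts were rounded. All 190 pairs of libraries were compared by their squared differences relative to Poisson noise. The noise ratio divides this measure at high counts by that at low counts, so it shows whether the excess grows with the count. Knockout trained libraries 1 and 4, and 3 and 5, had a noise ratio of at most 1.254, against at least 2.308 in the other 188 pairs and a limit of 1.5, and were summed. Within these pairs the measure itself was 1.755 to 2.38 times Poisson noise. Genes that reached a CPM of 1 in 5 or more of 20 libraries were kept (14359 of 21844; all 10 enzymes passed). The test was edgeR 4.0.16's quasi-likelihood test (R 4.3.3) with TMM scaling, a mean for each of the 4 groups, two-sided, Benjamini-Hochberg over the tested genes, threshold 0.05. On simulated counts for the sedentary genotype comparison (14359 genes), it recovered 25 of 50 halved genes, 5 of 50 raised 1.5-fold, and 43 of 50 raised 4-fold, with 4 false calls. Ratios used counts plus 0.5 and scipy 1.17.1. Lengths and coordinates of genes come from GENCODE M21 (GRCm38), in which 70 table identifiers were missing. Near-identical copies were searched for with blastn 2.17.0 for the 10 enzymes only. Reads that Eno1, Ldhb and the other glycolysis genes may share with copies were therefore not checked. Exon overlaps with other genes (such as Pfkm with Gm26513) leave some counts uncertain.

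The enzymes, gene lists and tests were chosen with earlier results of these data known. The text names the 10 enzymes, other glycolysis genes that passed the threshold, set isozymes and Hk2, and the genes most like the mean of the 10. The alternatives were other scalings, DESeq2 1.42.0, no filter, only the groups compared, separate libraries, the replicate number as a block and leaving out each sample. Adding copies, and combining settings with the removal of vehicle trained library 2, were chosen after seeing the data. 1 gene of the list of other glycolysis genes is not reported here.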

Additional observations from a re-analysis of the deposited data

Results flagged for a closer look

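A sample far from the others was looked for in 33 groups of 4 to 10 samples. At 1 in 20, chance gives about 1.65, but the groups share samples and are not independent. Such a sample was found in 4 groups, and in all 4 it was vehicle trained library 2. These 4 are therefore readings of 1 library. In that library Tpi1 was at 419 CPM, Pgam2 at 298 CPM, Eno3 at 898 CPM and Ldha at 596 CPM, each far below the other 4 vehicle trained libraries.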

How the results depend on the processing

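With all samples 0 of the 10 enzymes were called in any comparison, and this count moved under some settings. For the genotype comparison in sedentary muscle it was 1 (Pfkm) with only the groups compared, without vehicle trained library 2, and without that library when the 20 libraries were kept separate or near-identical copies were added. For the genotype comparison in trained muscle it was 1 (Pkm) with DESeq2 and with 20 separate libraries. It was 2 (Pfkm and Pgam2) without library 2, also with copies added, and 3 (Pfkm, Tpi1 and Pkm) with separate libraries and without library 2. For training in knockout muscle it was 2 with DESeq2 (Aldoa and Gapdh), 2 without library 2 (Gapdh and Pgam2), 1 without knockout trained libraries 1 and 4 (Gapdh), 3 (Aldoa, Gapdh and Pgam2) with separate libraries and without library 2, and 1 (Pgam2) with copies and without library 2. Over the samples left out in turn these counts ran from 0 to 1, 0 to 2 and 0 to 2. The cause was not tested, except that library 2 enters the shared spread. The count stayed 0 for training in vehicle muscle and the interaction under every setting run. The exact tests of isozyme ratios also gave 0, but with so few samples they could hardly pass the threshold, and this says nothing about stability.

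With the replicate number as a block, 1 enzyme was called, in the trained genotype comparison (Pkm, log2 change 0.61, adjusted p = 0.0224), and none in the others. The numbers did not pair the samples: 11 of 30 same-number correlations exceeded 0.1, with a median of 0.03.

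The sign reversed for some log2 changes near 0, none of them called. In the trained genotype comparison Gpi1 was -0.0102 with library totals alone, -0.0154 without knockout trained libraries 1 and 4, -0.00123 without 3 and 5, and between -0.0131 and 0.12 over the other samples left out. Ldha there was -0.0713 with separate libraries and without library 2, -0.0106 with copies and without library 2, and between -0.0152 (without library 2) and 0.266 over the samples left out; Eno3 was -0.0164 with separate libraries and without library 2. For training in vehicle muscle, library totals alone gave Aldoa -0.00181 and Gapdh -0.0162. Over the samples left out, Gapdh ran from -0.0243 to 0.0879, Pgk1 from -0.184 to 0.0746, Pgam2 from -0.231 to 0.146, Eno3 from -0.288 to 0.0414 and Ldha from -0.245 to 0.0505. The upper ends came without library 2. Without it and with separate libraries, Pgk1, Pgam2, Eno3 and Ldha were 0.0866, 0.157, 0.0537 and 0.0628; with copies 0.0711, 0.146, 0.0419 and 0.0517. Pfkm for training in knockout muscle was -0.0853 with library totals alone and -0.00882 without knockout trained libraries 3 and 5. Depth limits the low isozymes, and n = 3 in the knockout trained group limits its comparisons.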
